A study of Mus musculus with 9 samples.

Results

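The genes described here are 40 mouse genes of the interferon response and of antigen presentation, taken by symbol from 23360 genes listed for each library. All 40 symbols were found, and 32 of them were abundant enough to be tested among 14337 tested genes. They were measured in 9 libraries of ribosome-depleted total RNA, 3 per group, from a study of metastatic medulloblastoma of the Sonic Hedgehog subgroup, a cerebellar tumour that grows from granule neuron progenitors. A1G tumours came from Math1-cre;A1G;Ptch1+/- mice, in which the promoter of Math1 (Atoh1), a gene of granule neuron progenitors, drives Cre, and the labels do not spell out the A1G allele. Ptch1 tumours came from Ptch1+/- mice, so both kinds of tumour arose in mice that lack 1 working copy of the Hedgehog receptor gene Ptch1. The tumour animals were of mixed strain with no age given, and the controls were cerebella of wild-type adult C57BL/6 mice, so strain and tissue cannot be told apart in the comparison with cerebellum. No group received a treatment in the labels, and these do not say whether replicates were separate animals, so the p-values reflect library-to-library spread alone, which may be technical.

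Type I interferons are secreted by cells that sense foreign nucleic acids, and they signal through JAK kinases to a complex holding STAT2 and IRF9 that binds the interferon-stimulated response element (ISRE). The genes it switches on include sensors, effectors that block viral translation or entry, and the machinery that cuts peptides and loads them onto MHC class I molecules. MHC class II molecules present peptides to CD4 T cells and in the healthy brain are mostly found on immune cells, while neurons and medulloblastoma cells usually carry little MHC of either class.

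Levels are normalised counts-per-million (CPM), each log2 difference is given with its standard error (SE), and a gene is called where edgeR's quasi-likelihood p-value, adjusted over the tested genes by the Benjamini-Hochberg method, is under 0.05. Libraries held 2350941 to 9290237 fragments assigned to genes, and 3 fragments, taken as the floor for a gene without a fragment, were 0.337 to 1.23 CPM. Of 6 granule progenitor and tumour markers, 5 were higher in tumours, and all 7 markers of mature cerebellum were lower. Cerebellum replicate 1 stood apart in a choroid plexus marker, with Ttr at 2678 CPM against 37.7 and 83.5 in the other cerebellum libraries. In bulk RNA, fewer cells of a type and less RNA per cell cannot be told apart.

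The genes as a whole were low and did not move in 1 direction. In A1G tumours 22 of the 40 had a mean under 5 CPM, in Ptch1 tumours 21 and in cerebellum 24. Against cerebellum, the mean of the tumour groups was higher for 6 of the 32 tested genes (Ifit2, B2m, H2-K1, Psmb8, H2-Aa and Ifitm2) and lower for 1 (Stat2), while 25 were not called. The count of 6 fell to 3 without Ptch1 replicate 2, cerebellum replicate 2 or cerebellum replicate 3, with Ifit2 and B2m among the 3 each time. The share called higher was 18.8%, where 20.7% of all tested genes were called higher, and the share called lower was 3.12%, where 21.5% of all tested genes were. The counts of smaller lists and of cell markers below are to be read beside these shares of 20.7% and 21.5%. The median log2 difference of the 32 was 0.30, against 0.01 over all tested genes. All 6 tumour libraries lay above, or all below, the 3 cerebellum libraries for 5 genes (Ifit2, Ifitm2, B2m, H2-K1 and Stat2), which is 15.6% of those tested, against 38.2% of all tested genes. Between A1G and Ptch1 tumours no gene of the set was called, as described at the end.

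**Figure D1:**
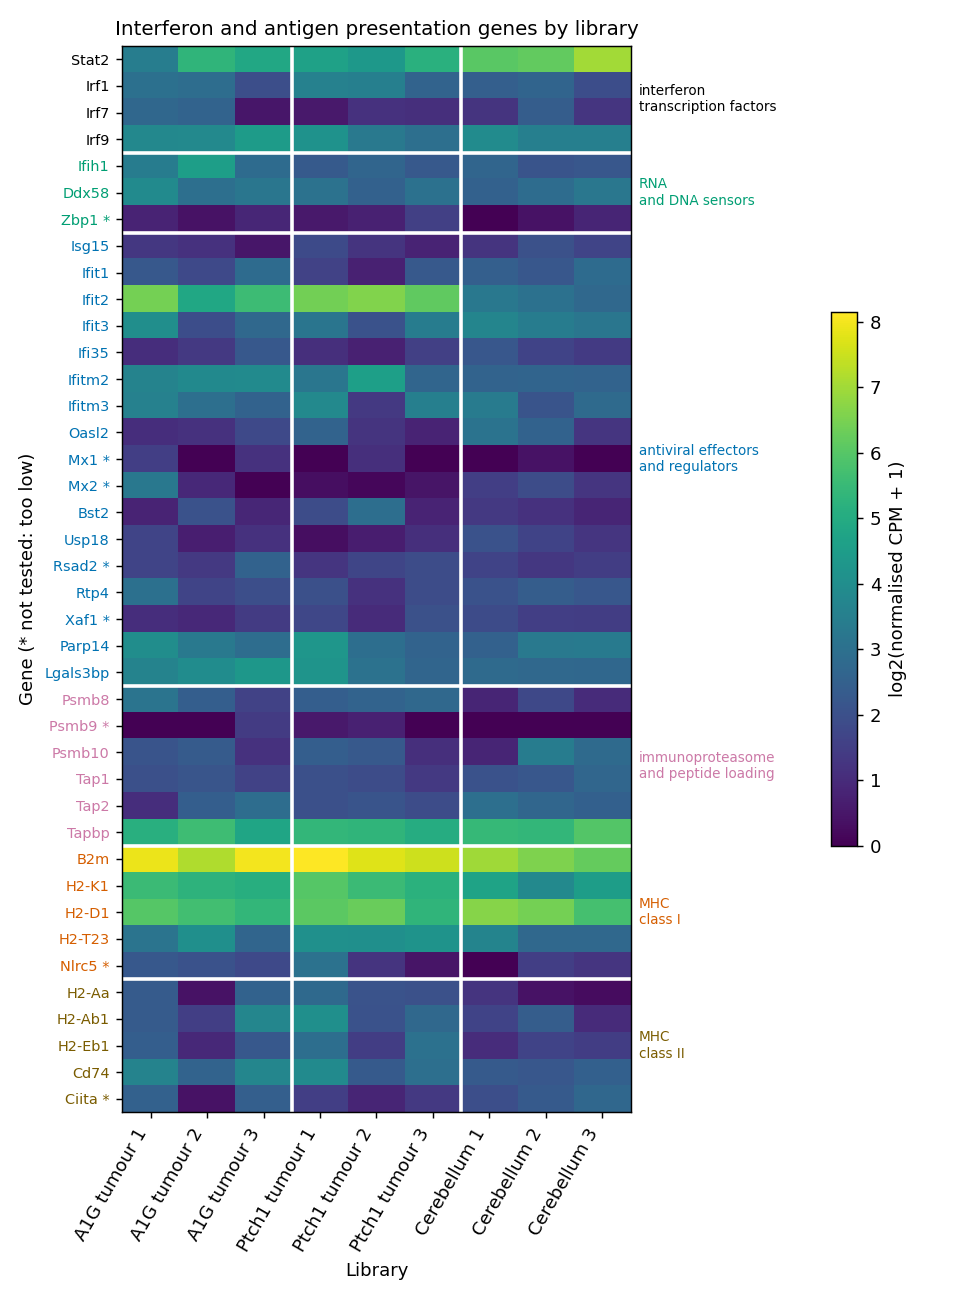
Level of each of the 40 genes (rows, grouped by role) in each of the 9 libraries (columns), as log2(normalised CPM + 1), with an asterisk for the 8 genes not tested. B2m was the brightest row in 8 libraries and Stat2 in cerebellum replicate 3, Ifit2 was bright in the 6 tumour libraries alone, and Stat2 was brighter in the 3 cerebellum libraries.

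Per unit of transcript length, by the FPKM (fragments scaled to transcript length and library size) that the authors deposited, B2m was the most abundant of the 40 in every group. Its mean was 324.3 FPKM in A1G tumours (libraries 223 to 386), 340.6 in Ptch1 tumours (280.0 to 428) and 143.8 in cerebellum (108 to 188). H2-D1 came next in all groups, at a mean of 33.7, 39.2 and 49.7 FPKM. In A1G tumours H2-D1 (26.3 to 41.5), Ifitm2 (26.9 to 33.0) and H2-K1 (22.8 to 31.9) overlapped, so their order was not set beyond their spread. The third place was held by Stat2 in cerebellum (20.6 FPKM, 15.3 to 30.0), where it overlapped Tapbp (15.3 to 23.3). Tumour and cerebellum FPKM were scaled separately, so these levels are read within a group only.

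The Ifit genes encode tetratricopeptide proteins that bind foreign RNA or translation factors and stop viral protein synthesis, and Ifit1, Ifit2 and Ifit3 lie side by side on chromosome 19. All 3 are textbook interferon-stimulated genes, and of these neighbours only Ifit2 was called. Their upstream sequences are shown, with those of Stat2, B2m and H2-K1, which were also called against cerebellum. Those of Psmb8, H2-Aa and Ifitm2, called too, are not shown. The sequences are from RefSeq on GRCm38.p6 (mm10), 250 bases ending just before the listed start, read 5′ to 3′ on the gene's strand, and capitals mark matches on either strand to the ISRE core, which is GAAA, any 2 bases and GAAA again. The spans were chr19:34550444-34550693 (plus strand) for Ifit2, chr19:34640639-34640888 (plus) for Ifit1, chr19:34583279-34583528 (plus) for Ifit3, chr10:128270248-128270497 (plus) for Stat2, chr2:122147437-122147686 (plus) for B2m and chr17:34000348-34000597 (minus) for H2-K1.
Ifit2: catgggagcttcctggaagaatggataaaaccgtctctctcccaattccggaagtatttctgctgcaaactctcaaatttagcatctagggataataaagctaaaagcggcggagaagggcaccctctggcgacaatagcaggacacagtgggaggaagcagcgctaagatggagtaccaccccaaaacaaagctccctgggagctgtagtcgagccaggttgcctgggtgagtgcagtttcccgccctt
Ifit1: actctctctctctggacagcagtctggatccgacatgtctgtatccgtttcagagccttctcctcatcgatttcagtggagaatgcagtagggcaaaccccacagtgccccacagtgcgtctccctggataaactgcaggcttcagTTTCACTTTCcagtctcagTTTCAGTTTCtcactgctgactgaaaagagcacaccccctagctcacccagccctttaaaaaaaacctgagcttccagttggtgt
Ifit3: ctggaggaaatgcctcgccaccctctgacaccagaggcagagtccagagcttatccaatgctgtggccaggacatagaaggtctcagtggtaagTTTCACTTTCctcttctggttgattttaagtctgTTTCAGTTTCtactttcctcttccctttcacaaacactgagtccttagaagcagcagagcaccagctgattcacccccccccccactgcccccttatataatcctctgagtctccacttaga
Stat2: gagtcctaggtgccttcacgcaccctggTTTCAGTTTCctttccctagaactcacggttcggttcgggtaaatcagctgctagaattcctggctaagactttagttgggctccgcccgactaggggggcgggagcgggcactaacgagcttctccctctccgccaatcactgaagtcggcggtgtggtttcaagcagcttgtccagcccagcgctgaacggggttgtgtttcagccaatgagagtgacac
B2m: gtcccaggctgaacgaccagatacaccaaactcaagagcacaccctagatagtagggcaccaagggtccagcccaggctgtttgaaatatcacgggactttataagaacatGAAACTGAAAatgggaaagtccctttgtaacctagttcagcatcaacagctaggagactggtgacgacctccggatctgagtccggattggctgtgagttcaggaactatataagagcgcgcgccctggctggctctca
H2-K1: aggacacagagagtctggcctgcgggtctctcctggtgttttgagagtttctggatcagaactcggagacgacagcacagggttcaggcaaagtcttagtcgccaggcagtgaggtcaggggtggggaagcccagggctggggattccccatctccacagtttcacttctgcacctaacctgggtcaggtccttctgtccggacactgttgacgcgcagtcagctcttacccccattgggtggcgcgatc

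The matches began 104 and 85 bases before the listed start in Ifit1, 156 and 122 in Ifit3, 222 in Stat2 and 139 in B2m. Ifit2 had no match at either of its 2 listed starts, and H2-K1 had none at either of its 2. Of the 40 genes, 29 had a promoter in the table used, spanning 250 bases before to 50 bases after the start, and 12 of them (41.4%) held the ISRE core: Stat2, Ifih1, Ddx58, Isg15, Ifit1, Ifit3, Ifitm2, Ifitm3, Bst2, Rsad2, B2m and H2-T23. Over all 27025 genes in the table the share was 3.99%. The core of the interferon-gamma activated site, TTCNNNGAA, which is its own reverse complement, was in 6 of the 29 (20.7%), among them Ifit2, Irf1 and Psmb8, and in 9.55% of all genes. A match describes letters in this window and not a bound site. Only exact matches were counted, so a gene without one, such as Ifit2 or H2-K1, may still hold a looser form of the element. Of the 12 genes with the ISRE core, B2m and Ifitm2 were called higher in tumours and Stat2 lower. In that comparison the other 9 were not called or, for Rsad2, not tested, and Ifih1 was called in A1G tumours alone against cerebellum.

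Ifit2 (ENSMUSG00000045932, chr19:34550694-34576419) rose most of the 32 tested genes in tumours. It stood at 86.2, 27.8 and 46.9 CPM in A1G replicates 1 to 3 and at 83.1, 95.6 and 69.7 in Ptch1 replicates 1 to 3. In cerebellum it stood at 8.67, 7.30 and 5.79 CPM. Every tumour library lay above every cerebellum library, with A1G replicate 2 the lowest of the tumours. The tumour mean was 9.41 times that of cerebellum, and log2 rose by 3.20 (SE 0.39, adjusted p = 4.38e-05, edgeR). Permuting the 6 against 3 libraries exactly (two-sided) gave p = 0.0119, the smallest it can give. For tumours against cerebellum this permutation p is given only for genes whose libraries did not overlap, a choice that favours small values. No 50-base stretch of Ifit2 transcripts was shared with another gene.

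Ifit1 (chr19:34640871-34650009) had 3.69, 2.495 and 6.17 CPM in A1G tumours, 2.06, 0.67 and 3.83 in Ptch1 tumours and 4.46, 3.65 and 6.19 in cerebellum. Ifit3 (chr19:34583531-34588731) had 15.1, 2.81 and 5.76 CPM in A1G tumours, 8.01, 3.15 and 9.58 in Ptch1 tumours and 12.1, 9.73 and 8.19 in cerebellum. For both genes the tumour and cerebellum libraries overlapped. The log2 differences from cerebellum were -0.73 for Ifit1 (SE 0.58, adjusted p = 0.333, edgeR) and -0.45 for Ifit3 (SE 0.52, adjusted p = 0.516). Of the 50-base stretches of Ifit3 transcripts, 51.2% were shared with Ifit3b. No gene of that symbol was listed for the libraries, so the Ifit3 level is uncertain. Ifit1 and Ifit3, with H2-D1, the class II genes beyond H2-Aa, Irf7, Lgals3bp and Mx2, were chosen for values in every library after their values were seen.

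**Figure D2:**
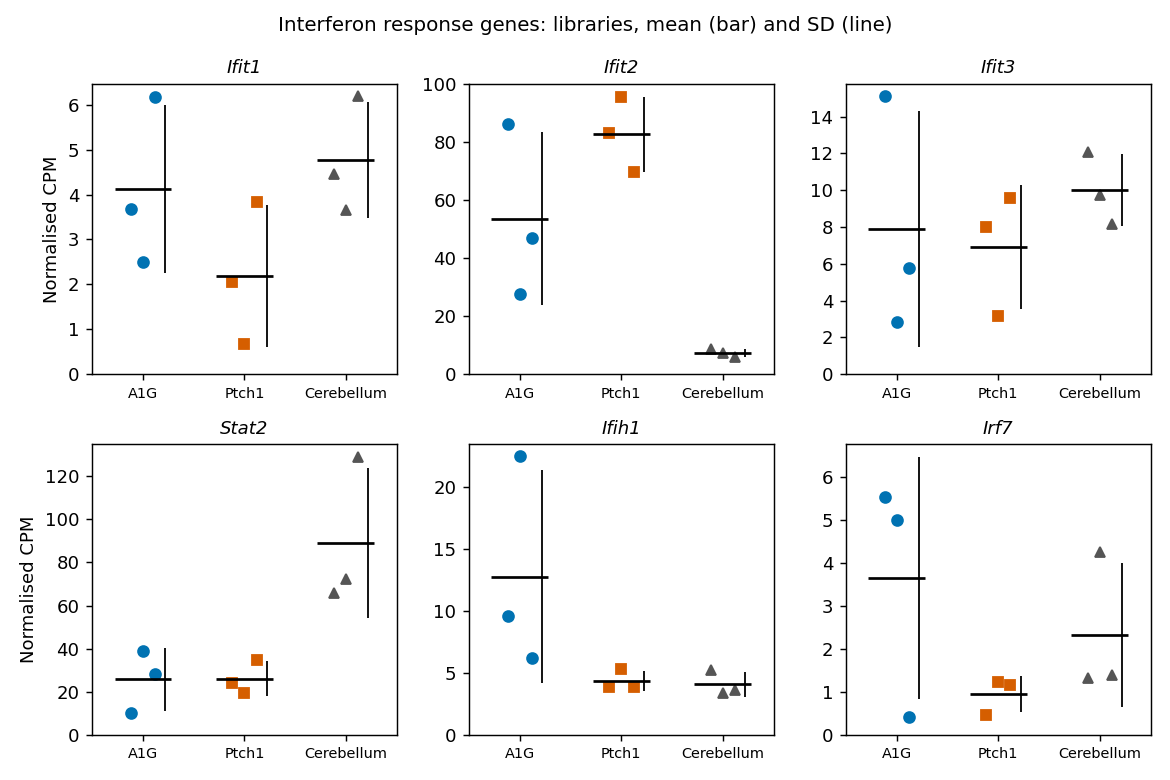
Normalised CPM of 6 interferon response genes in each library (points, 3 per group), with the group mean (bar) and SD (vertical line). The 6 tumour libraries of Ifit2 sit between 27.8 and 95.6 CPM above the 3 cerebellum libraries, Stat2 sits higher in cerebellum, and Ifit1, Ifit3 and Irf7 overlap between tumour and cerebellum.

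Among the transcription factors, Stat2 fell and the IRF genes were not called. Stat2 (chr10:128270559-128292849), the STAT protein used by type I and type III interferon receptors, stood at 9.95, 39.0 and 28.4 CPM in A1G tumours and at 24.04, 19.3 and 34.9 in Ptch1 tumours. In cerebellum it stood at 65.9, 72.4 and 128.8 CPM, above every tumour library. The cerebellum mean was 3.44-fold higher (exact permutation p = 0.0119), and the log2 difference of tumours from cerebellum was -1.79 (SE 0.37, adjusted p = 0.00193, edgeR). The difference was the same in size for both kinds of tumour, -1.79 (SE 0.46, adjusted p = 0.0103) in A1G and -1.79 (SE 0.45, adjusted p = 0.00788) in Ptch1, each against the same 3 cerebellum libraries.

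Irf9, the DNA-binding partner of the STAT proteins, had a log2 difference from cerebellum of 0.18 (SE 0.38) and Irf1, a factor induced by interferon gamma, of 0.76 (SE 0.48). Irf7, which amplifies interferon production, had -0.27 (SE 0.74). Their adjusted p-values were 0.737, 0.225 and 0.797 (edgeR). Irf7 was uneven among A1G tumours, at 5.53, 4.99 and 0.41 CPM in replicates 1 to 3, the last below the floor of 1.23 CPM for that library. In Ptch1 tumours it lay at 0.46, 1.24 and 1.15 CPM and in cerebellum at 1.31, 4.26 and 1.40.

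The receptors and kinases upstream were largely present, whereas interferon transcripts were near or at 0. Of 12 tested genes for interferon receptors, kinases and feedback regulators, 1 rose and 3 fell in tumours, with a median log2 difference of -0.01. Socs3, a feedback inhibitor of JAK signalling that many cytokines induce, was higher by a log2 of 4.64 (SE 0.46, adjusted p = 9.2e-06, edgeR). The interferon-gamma receptor chain Ifngr2 differed by -1.74 (SE 0.41, adjusted p = 0.00421) and the kinase Jak1 by -0.88 (SE 0.20, adjusted p = 0.00355). Of 7 interferon genes, Ifna1, Ifna2, Ifna4 and Ifne had no fragment in any of the 9 libraries, which allows up to the floor of 3 fragments in each. Ifnb1 and Ifng had at most 0.229 and 0.112 CPM, and Ifnk, the only one tested, was at 0 to 4.79 CPM and was not called. That depth cannot tell a low interferon transcript level from none.

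Of the sensors, Ifih1 was highest in A1G tumours. Ifih1 (chr2:62595798-62646255), which encodes MDA5, a cytoplasmic sensor of long double-stranded RNA, stood at 9.58, 22.5 and 6.17 CPM in A1G tumours. It stood at 3.89, 5.28 and 3.83 CPM in Ptch1 tumours and at 5.25, 3.35 and 3.59 in cerebellum. All 3 A1G libraries lay above all 6 others, and the Ptch1 and cerebellum libraries overlapped. Against cerebellum the log2 difference was 1.65 in A1G tumours (SE 0.55, adjusted p = 0.0371, edgeR) and 0.11 in Ptch1 tumours (SE 0.55, adjusted p = 0.896). It passed the filter on low values through the A1G libraries alone, so its difference from either other group is partly built in. The stricter filter left it out, so it was not tested there. It was not called against cerebellum with the replicate block, by limma, with the compared groups alone, or without A1G replicate 2 or any 1 cerebellum library. Ddx58, which encodes RIG-I, the sensor of short RNA with a 5′ triphosphate, had 14.0, 6.86 and 8.23 CPM in A1G tumours, 7.33, 4.83 and 7.28 in Ptch1 tumours and 4.73, 6.39 and 8.39 in cerebellum, with overlap between all groups. Zbp1, a sensor of Z-form nucleic acids, was at 0 to 1.92 CPM and was not tested.

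Further sensing genes were measured as a list of 16 adaptors, kinases, other sensors, IRF factors and TRIM genes. Of these 14 were tested, 3 rose in tumours and none fell. Over all tested genes 20.7% were called higher and 21.5% lower. These were Tmem173, which encodes the DNA-sensing adaptor STING (log2 3.23, SE 0.64, adjusted p = 0.00149, edgeR), Mb21d1, which encodes the DNA sensor cGAS (2.86, SE 0.52, adjusted p = 0.000852), and Irf8, a factor of the myeloid lineage (2.79, SE 0.63, adjusted p = 0.00361). Tmem173 ranged over 2.98 to 15.1 CPM in the tumour libraries and 0.525 to 1.40 in cerebellum. The median log2 difference of the list was -0.05.

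Of the 17 antiviral effectors and regulators, 13 were tested, Ifit2 and Ifitm2 rose in tumours, none fell, and 11 were not called, with a median log2 difference of -0.29. Ifitm2 (chr7:140954837-140955987), a membrane protein that restricts virus entry, stood at 11.4, 13.7 and 14.0 CPM in A1G tumours, 8.24, 22.9 and 5.36 in Ptch1 tumours and 4.99, 5.17 and 4.99 in cerebellum. The tumour libraries did not overlap cerebellum (exact permutation p = 0.0476), but Ptch1 replicate 3 exceeded it by little. The log2 difference was 1.33 (SE 0.48, adjusted p = 0.0392, edgeR). The call was lost in 6 of the 9 fits that left out 1 library (A1G replicates 2 and 3, Ptch1 replicate 2 and each cerebellum library), and without Ptch1 replicate 2 the difference was 0.90 (adjusted p = 0.0916). Ifitm2 shares 40.9% of its exon bases with Gm45717 on the same strand, so its level is uncertain. Its neighbour Ifitm3 had a log2 difference of 0.33 (SE 0.61, adjusted p = 0.694).

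The effectors most used as signs of an interferon response were low in all groups. Isg15, a ubiquitin-like modifier, was at 0.411 to 3.04 CPM over the 9 libraries, Usp18, the protease that removes it, at 0.229 to 3.15, and Oasl2, of the oligoadenylate synthetase family, at 0.766 to 7.62. Their log2 differences from cerebellum were -0.74 (SE 0.65), -1.27 (SE 0.68) and -1.22 (SE 0.70), with adjusted p-values of 0.385, 0.151 and 0.18 (edgeR), and tumour and cerebellum libraries overlapped for each. Bst2 (tetherin, which holds budding virus at the membrane) had a log2 difference of 1.004 (SE 0.79), Rtp4 of -0.29 (SE 0.55), Ifi35 of -0.64 (SE 0.64) and Parp14, an ADP-ribosyltransferase, of 0.40 (SE 0.49), none called. Lgals3bp, a secreted glycoprotein that binds galectins, stood at 11.4, 14.7 and 18.9 CPM in A1G tumours, 17.4, 7.42 and 5.36 in Ptch1 tumours and 6.04, 5.78 and 5.59 in cerebellum. Its A1G libraries all lay above cerebellum (log2 1.36, SE 0.49, adjusted p = 0.0497, edgeR), while Ptch1 replicate 3 lay below it (0.80, SE 0.48, adjusted p = 0.211). The A1G call was lost with median-of-ratios scaling, with no filter, with the stricter filter, with the replicate block, and without any 1 A1G library, any 1 cerebellum library or Ptch1 replicate 2.

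Mx1, Mx2, Rsad2 and Xaf1 were too low to test. Mx1 and Mx2 encode dynamin-like antiviral GTPases, whose genes are defective in many inbred mouse strains, and the annotation lists Mx2 as a polymorphic pseudogene. Mx2 had 8.48, 0.936 and 0 CPM in A1G tumours, 0.229, 0.112 and 0.383 in Ptch1 tumours and 1.84, 2.74 and 1.40 in cerebellum, so that A1G replicate 1 was high alone. Fitted without the filter on low values, its A1G minus Ptch1 difference was 3.71 (SE 1.30, adjusted p = 0.266, edgeR). Mx1 had no fragment in 5 of the 9 libraries and at most 1.84 CPM. Rsad2, which encodes viperin, ranged over 1.37 to 4.93 CPM and Xaf1 over 0.936 to 3.06. Of 24 tested further interferon-stimulated genes, 3 rose in tumours and 1 fell, with a median log2 difference of 0.12. Among them were the GTPase gene Irgm1 (log2 1.62, SE 0.53, adjusted p = 0.027, edgeR), the nuclear body gene Pml (0.87, SE 0.32, adjusted p = 0.042) and the RNA-editing enzyme gene Adar (-0.60, SE 0.22, adjusted p = 0.0419).

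**Figure D3:**
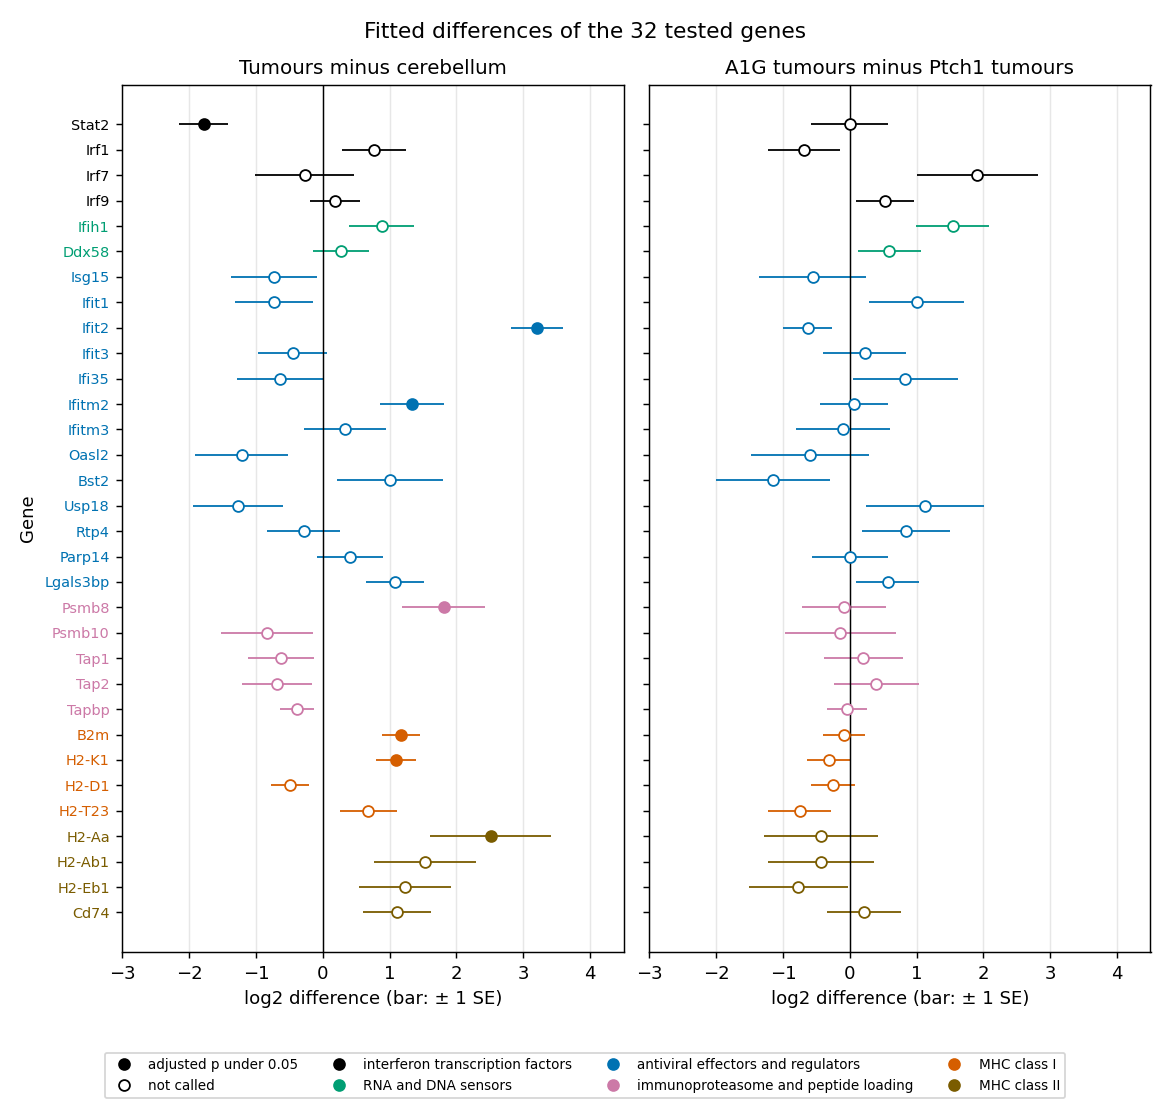
Log2 difference (x axis, point) with 1 SE on each side (line) for the 32 tested genes, for tumours minus cerebellum (left) and A1G minus Ptch1 tumours (right), with filled points for an adjusted p under 0.05 and colours for roles. On the left 6 filled points lie above 0 and Stat2 lies at -1.79, and on the right no point is filled.

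The steps that make and load class I peptides did not move together. Of the 6 genes of the immunoproteasome and of peptide loading, 5 were tested, Psmb8 rose and none fell, with a median log2 difference of -0.63. Psmb8 (chr17:34197721-34201454), a catalytic subunit of the immunoproteasome, stood at 7.74, 4.37 and 2.06 CPM in A1G tumours, 4.35, 5.05 and 5.75 in Ptch1 tumours and 0.788, 2.43 and 0.998 in cerebellum. A1G replicate 3 lay below cerebellum replicate 2, and the other 5 tumour libraries lay above all cerebellum libraries. The log2 difference was 1.81 (SE 0.63, adjusted p = 0.0346, edgeR), and the call was lost in 5 of the 9 fits that left out 1 library (A1G replicate 1, Ptch1 replicates 2 and 3, cerebellum replicates 1 and 3). Psmb8 shares 14.7% of its exon bases with an antisense gene, whose reads cannot be told apart from its own unless counting used strand, and the use of strand is not stated for these tables.

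Its partner subunit Psmb9 had no fragment in 6 libraries, all 3 of cerebellum among them, and at most 1.65 CPM, so it was not tested. Psmb10, the other inducible subunit, had a log2 difference of -0.84 (SE 0.69, adjusted p = 0.351, edgeR). The peptide transporter subunits Tap1 and Tap2 had -0.63 (SE 0.49, adjusted p = 0.328) and -0.68 (SE 0.52, adjusted p = 0.317). Tapbp, which encodes tapasin and bridges the transporter to class I molecules, was the most abundant of these genes, at 26.7 to 48.0 CPM in tumours and 40.7 to 60.7 in cerebellum, where log2 differed by -0.39 (SE 0.26, adjusted p = 0.25). It shares 24.9% of its exon bases with an antisense gene.

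Of the MHC class I genes, B2m and H2-K1 rose in tumours and H2-D1 did not. B2m (chr2:122147686-122153083), the light chain that every classical class I molecule needs, stood at 238.5, 142.8 and 256.2 CPM in A1G tumours and at 281.4, 211.8 and 183.5 in Ptch1 tumours. In cerebellum it stood at 126.3, 93.0 and 72.9 CPM. All tumour libraries lay above all cerebellum libraries, with A1G replicate 2 the lowest. The tumour mean was 2.25 times that of cerebellum, and log2 rose by 1.17 (SE 0.28, adjusted p = 0.00515, edgeR), and an exact permutation test over libraries gave p = 0.0119.

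H2-K1 (chr17:33996017-34000347), a classical class I heavy chain, stood at 46.1, 37.1 and 33.3 CPM in A1G tumours and at 63.2, 45.5 and 35.6 in Ptch1 tumours. In cerebellum it stood at 25.2, 13.4 and 21.96 CPM, below every tumour library. The tumour mean was 2.15 times that of cerebellum (exact permutation p = 0.0238), and log2 rose by 1.10 (SE 0.30, adjusted p = 0.0109, edgeR). Without cerebellum replicate 2 it was 0.87 and not called (adjusted p = 0.0686).

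H2-D1 (chr17:35262730-35267499), the other classical heavy chain, stood at 63.4, 50.2 and 40.7 CPM in A1G tumours, 66.4, 77.2 and 39.5 in Ptch1 tumours and 99.5, 85.1 and 51.9 in cerebellum. Tumour and cerebellum libraries overlapped, and the log2 difference was -0.49 (SE 0.28, adjusted p = 0.185, edgeR). H2-T23, which encodes the non-classical molecule Qa-1, ranged over 5.35 to 17.2 CPM in tumours and 5.78 to 11.8 in cerebellum (log2 0.68, SE 0.42, adjusted p = 0.215). Nlrc5, the transactivator of class I genes, was at 0 to 7.33 CPM and was not tested.

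The class I heavy chains differ in sequence between mouse strains and resemble each other. Of the 40 genes, 11 lie in the MHC stretch chr17:33915899-36032855, and 9.6% of the 50-base stretches of H2-K1, 12.8% of those of H2-D1 and 13.6% of those of H2-T23 occurred in other genes. Whether alleles of the mixed-strain tumour animals aligned as well as C57BL/6 alleles was not tested. B2m lies outside this stretch, on chromosome 2, and shared no 50-base stretch with another gene. Of 22 tested further genes of antigen processing, 2 rose in tumours and none fell, with a median log2 difference of 0.25. They were the lysosomal protease gene Ctss (log2 1.59, SE 0.44, adjusted p = 0.0107, edgeR) and the proteasome activator subunit gene Psme1 (1.005, SE 0.29, adjusted p = 0.0133).

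**Figure D4:**
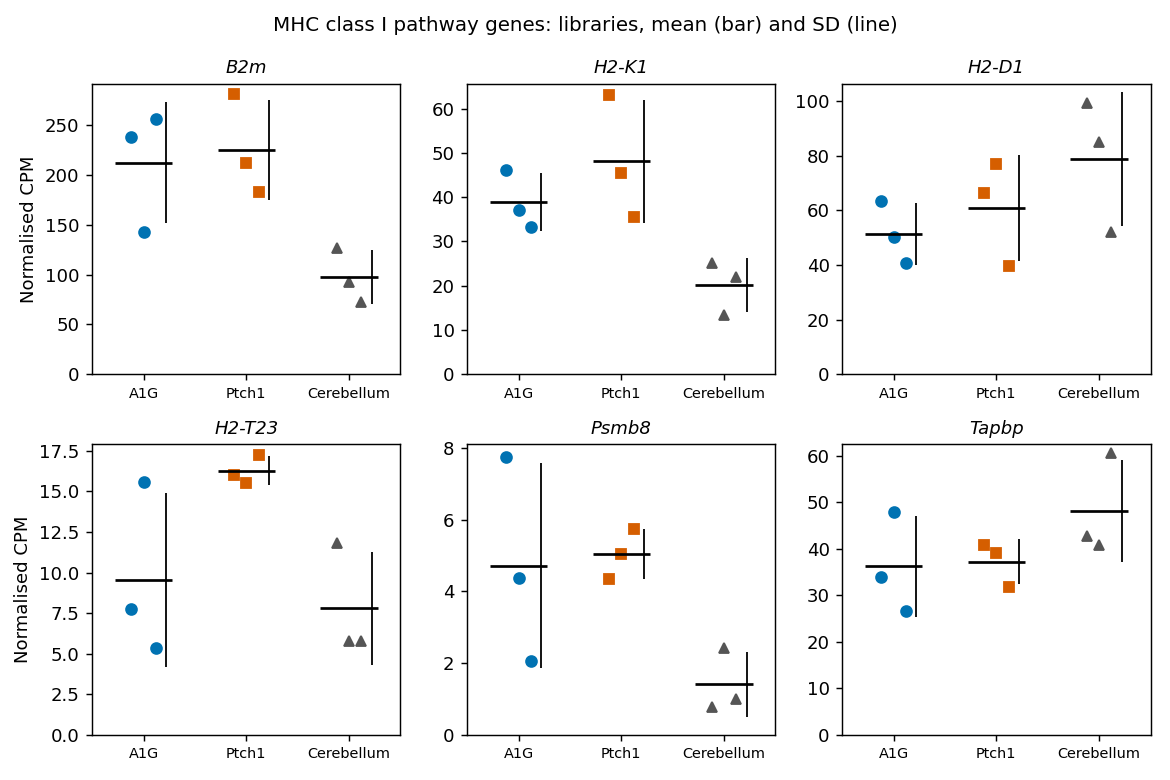
Normalised CPM of 6 genes of the class I pathway in each library (points, 3 per group), with the group mean (bar) and SD (vertical line). B2m and H2-K1 sit higher in all 6 tumour libraries than in the 3 cerebellum libraries, while H2-D1, H2-T23, Psmb8 and Tapbp overlap between tumour and cerebellum.

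MHC class II genes were low and uneven among tumours. H2-Aa, the alpha chain of I-A, stood at 4.05, 0.312 and 4.93 CPM in A1G tumours, 5.95, 3.26 and 3.06 in Ptch1 tumours and 1.31, 0.304 and 0.2 in cerebellum. All tumour libraries but A1G replicate 2 lay above cerebellum, and the log2 difference was 2.51 (SE 0.90, adjusted p = 0.0407, edgeR). It was called in 3 of the 9 fits that left out 1 library. The 6 libraries whose loss ended the call were A1G replicates 1 and 3, Ptch1 replicates 1 and 2 and cerebellum replicates 2 and 3. Of the cerebellum values 2, and that of A1G replicate 2, were under the floor of their library.

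H2-Ab1, the beta chain of I-A, stood at 4.05, 1.87 and 12.3 CPM in A1G tumours, 15.6, 3.15 and 5.75 in Ptch1 tumours and 2.10, 4.26 and 0.998 in cerebellum. H2-Eb1, the beta chain of I-E, stood at 4.42, 0.936 and 3.70 CPM in A1G tumours, 6.64, 1.80 and 7.28 in Ptch1 tumours and 1.05, 2.13 and 1.80 in cerebellum. Cd74, the invariant chain that guides class II molecules to endosomes, stood at 11.4, 4.99 and 12.3 CPM in A1G tumours, 14.0, 3.93 and 6.90 in Ptch1 tumours and 3.94, 3.65 and 4.59 in cerebellum. For each of the 3 genes tumour and cerebellum libraries overlapped. The log2 differences were 1.53 (SE 0.76), 1.22 (SE 0.69) and 1.11 (SE 0.51), with adjusted p-values of 0.125, 0.174 and 0.1 (edgeR), so none was called. Ciita, the master transactivator of class II genes, was too low to test. It stood at 4.79, 0.312 and 4.52 CPM in A1G tumours, 1.83, 0.786 and 1.53 in Ptch1 tumours and 2.89, 3.95 and 5.59 in cerebellum. Its Ptch1 libraries all lay below cerebellum, and its A1G libraries overlapped cerebellum. Fitted without the filter on low values, its log2 difference of tumours from cerebellum was -0.956 (SE 0.709, adjusted p = 0.342, edgeR).

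In the sum of the 5 class II genes, A1G replicates 1 and 3 and Ptch1 replicates 1 and 3 lay above every cerebellum library. A1G replicate 2 and Ptch1 replicate 2 did not. The 5 class II genes summed to 28.8, 8.42 and 37.8 CPM in A1G tumours, 44.0, 12.9 and 24.5 in Ptch1 tumours and 11.3, 14.3 and 13.2 in cerebellum. This sum counts the regulator Ciita, at 0.786 CPM in Ptch1 replicate 2 and 2.89, 3.95 and 5.59 in cerebellum. The place of Ptch1 replicate 2 depends on counting Ciita. Markers of microglia and macrophages, cells that can express class II and abundant class I genes, were also higher in tumours as a sum. Their 16 markers summed to 242.5 to 546.9 CPM in tumours and 185.5 to 203.3 in cerebellum. Marker sums in A1G replicates 1 to 3 were 388.9, 369 and 546.9 CPM, in the same order as their class II sums. In Ptch1 replicates 1 to 3 they were 433.7, 335.2 and 242.5 CPM. Ptch1 replicate 1 was the highest of its group in both sums, while Ptch1 replicates 2 and 3 stood in the opposite order. Of the 16, 9 were higher in tumours and none lower, among them C1qb (log2 2.27, SE 0.35, adjusted p = 0.000253, edgeR). The homeostatic microglia markers P2ry12 (-0.16, SE 0.42, adjusted p = 0.784), Tmem119 (-0.30, SE 0.54, adjusted p = 0.689) and Cx3cr1 (-0.74, SE 0.29, adjusted p = 0.0566) were not called over both kinds of tumour. Cx3cr1 was lower in Ptch1 tumours alone (-1.01, SE 0.34, adjusted p = 0.0345). The part of these cells in the B2m, H2-K1, Psmb8 and class II results was not tested.

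Markers of T and NK cells summed to 4.98 to 10.99 CPM in tumours and 3.35 to 7.39 in cerebellum, with Nkg7 at 0 in all 9 libraries and Cd3e at 0 in 7. The 9 dendritic and B cell markers summed to 4.42 to 6.18 CPM in tumours and 29.7 to 35.3 in cerebellum, where Flt3 made up 26.0 to 33.1 and was lower in tumours (log2 -6.94, SE 0.47, adjusted p = 5.69e-07, edgeR). Itgax, a marker of dendritic cells and of some macrophages, was too low to test, at 1.35 to 3.70 CPM in tumours and 0 to 0.608 in cerebellum, without overlap. Endothelial markers, another class I-bearing cell type, went the other way, with 4 of 8 lower in tumours and none higher, summing to 58.2 to 136.8 CPM in tumours and 209.2 to 254.8 in cerebellum. The sum for the 5 class I genes was 248.9 to 434.3 CPM in tumours and 153.9 to 262.9 in cerebellum, and only A1G replicate 2 among the tumours lay within the cerebellum range.

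**Figure D5:**
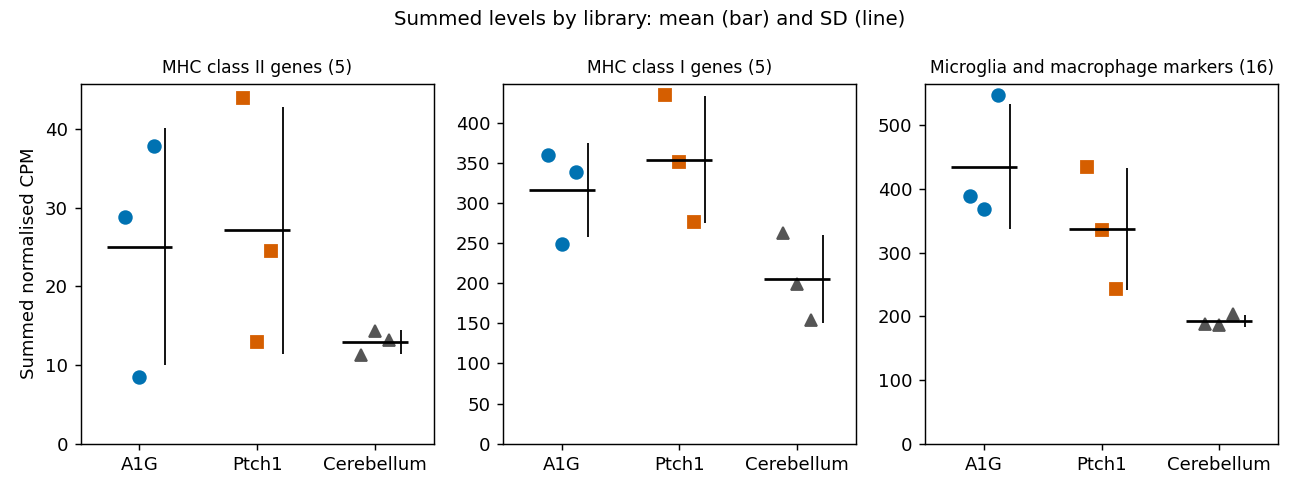
Summed normalised CPM per library (points, 3 per group) of the MHC class II genes (Ciita included), the MHC class I genes and 16 microglia and macrophage markers, with the group mean (bar) and SD (vertical line). Class II sums of the tumours spread from 8.42 to 44.0 CPM around the cerebellum sums of 11.3 to 14.3, while the marker sums of all 6 tumour libraries lie above the 3 cerebellum libraries.

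Each kind of tumour was also set against cerebellum, with the same 3 cerebellum libraries in both comparisons. In A1G tumours 5 of the 32 were higher (Ifit2, B2m, H2-K1, Ifih1 and Lgals3bp) and Stat2 was lower, where 16.3% of all tested genes were called higher and 16.1% lower. In Ptch1 tumours 5 were higher (Ifit2, B2m, H2-K1, H2-Aa and Psmb8) and Stat2 was lower, where the shares of all tested genes were 20.2% and 19.7%. The median log2 difference of the 32 was 0.41 in A1G tumours, against 0.03 over all tested genes, and 0.04 in Ptch1 tumours, against 0. Ifit2 differed from cerebellum by 2.89 (SE 0.41, adjusted p = 0.000256, edgeR) in A1G and 3.52 (SE 0.42, adjusted p = 4.81e-05) in Ptch1 tumours, and B2m by 1.12 (SE 0.31, adjusted p = 0.0155) and 1.21 (SE 0.31, adjusted p = 0.00838). The A1G count includes Ifih1, which was tested through its A1G libraries alone. Both counts depended on single libraries. Ifit2 alone was called higher in A1G tumours without cerebellum replicate 2, Ifit2 and B2m without cerebellum replicate 3, and 3 genes without A1G replicate 1, 2 or 3 or cerebellum replicate 1. H2-K1 lost this call without any 1 A1G library or cerebellum replicate 2 or 3. It was also lost with median-of-ratios scaling, with no filter and with the stricter filter. B2m lost its A1G call without A1G replicate 3 or cerebellum replicate 2. Stat2 was not called in A1G tumours without cerebellum replicate 3. In Ptch1 tumours Ifit2 and B2m alone were called higher without Ptch1 replicate 1, and 3 genes without Ptch1 replicate 2 or cerebellum replicate 2 or 3.

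The direct comparison of A1G with Ptch1 tumours, 2 genotypes that share the Ptch1+/- background, called none of the 32 genes (edgeR). Of all tested genes, 0.0139% were called higher and 0% lower. The 7 markers of mature cerebellum were all higher in A1G than in Ptch1 tumours in fitted value, with a median log2 difference of 1.83 and 1 called (Calb1, 3.81, SE 0.40, adjusted p = 0.00627), and their part in the results was not tested. At an unadjusted p under 0.05, 1 gene of the set passed (Ifih1), where 10.6% of all tested genes did, and DESeq2 and limma also called none of the set. The mean of Ifih1 was 2.94 times as high in A1G tumours, and log2 differed by 1.54 (SE 0.55, unadjusted p = 0.015, adjusted p = 0.368, edgeR). These values, too, rest on a gene that was tested only because its A1G libraries were high. It was also the only gene of the set whose A1G and Ptch1 libraries did not overlap, 3.12% of the 32 against 15.5% of all tested genes. An exact permutation test of 3 against 3 libraries gives p = 0.1 for any gene without overlap, so it adds nothing for Ifih1. Without A1G replicate 2 the difference was 0.84 (adjusted p = 0.6), and over the 9 fits that left out 1 library the adjusted p ran from 0.303 to 0.636.

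The genes called against cerebellum in 1 kind of tumour alone were not shown to differ between the kinds. The A1G minus Ptch1 difference was 0.57 for Lgals3bp (SE 0.47, adjusted p = 0.695, edgeR), -0.43 for H2-Aa (SE 0.85, adjusted p = 0.897) and -0.09 for Psmb8 (SE 0.63, adjusted p = 0.978). Of the 32 differences 28 were under 1 in size on the log2 scale, and the SE ranged from 0.30 (Tapbp) to 0.90 (Irf7), with a median of 0.61. Beside Ifih1, those of 1 or more were 1.91 for Irf7 (SE 0.90, adjusted p = 0.481), 1.13 for Usp18 (SE 0.88, adjusted p = 0.672) and -1.15 for Bst2 (SE 0.85, adjusted p = 0.655). B2m differed by -0.09 (SE 0.31), H2-K1 by -0.31 (SE 0.33) and Ifit2 by -0.63 (SE 0.37, adjusted p = 0.56). With errors of this size a small change between the kinds of tumour was not detectable for most of the set. A large change could go uncalled as well. The estimate of 1.91 for Irf7 had an SE of 0.90, and a change in Irf7 was not shown. The median log2 difference was -0.02, against 0.02 over all tested genes.

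Within groups, no library was high across the whole set, but some leaned to 1 side. Ptch1 replicate 1 was highest of its group for 19 of the 40 genes and lowest for 5. Ptch1 replicate 3 was highest of its group for 12 and lowest for 20. A1G replicate 1 was highest of its group for 18 and lowest for 8, and A1G replicate 2 for 7 and 16. Ptch1 replicate 1 was the highest of the 9 libraries for 9 of the 40 genes and A1G replicate 1 for 7, while A1G replicate 2 was highest for 1. All 40 genes summed to 505.3 to 677.9 CPM in A1G tumours, 527.9 to 767.3 in Ptch1 tumours and 445.5 to 501.9 in cerebellum. B2m was the largest part of the sum in 8 libraries and Stat2 in cerebellum replicate 3.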

How the data were processed

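Ribosome-depleted total RNA was sequenced on an Ion Proton, 3 libraries to a chip, per the labels' protocols. How the libraries were spread over chips is not stated, so chip and group cannot be told apart. The submitters' processing notes name the build mm10 and Bowtie 0.12.2. For annotation, counting tool and use of strand, the sources used here give nothing. Per the file headers, the authors deposited raw fragments per gene (expected counts, not whole for 1147 to 1440 genes per library), a signal made of those fragments times 1 factor per library, and FPKM. The signal was not used in any test. Values with a failed status (0 to 4 genes per library) were kept.

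Fragments were rounded to whole numbers. Genes that reached a deposited FPKM of 1 in 3 or more libraries were fitted with edgeR 4.0.16 (quasi-likelihood, TMM scaling, 1 mean per group over all 9 libraries) under R 4.3.3. P-values were adjusted by Benjamini-Hochberg with a threshold of 0.05. CPM used the TMM library sizes. The depth of 2350941 to 9290237 fragments sets a floor of 3 fragments per library. Such floors cover counting error only. The script was tested on simulated data. Alternatives were median-of-ratios scaling, DESeq2 1.42.0, limma 3.58.1 on log2(FPKM + 1) and log2(FPKM + 0.1), which reads the separately scaled FPKM across groups, no filter, a stricter filter (FPKM of at least 2), a fit of the compared groups alone, a replicate block and leaving out each library. A count at an unadjusted p was added after seeing the data.

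All 40 genes are named. Values in every library were given for called genes of each role (up to 3) or, where none was called, for 2 abundant ones, and for genes whose A1G and Ptch1 libraries did not overlap at an unadjusted p under 0.05. From the other lists, up to 4 called genes were named, of which some are not reported here. The genes and lists were chosen with earlier results of these data known. Coordinates and exon overlaps came from GENCODE M21 (mm10), and promoters from RefSeq on GRCm38.p6. Sequence was searched and figures were drawn with Python 3.11.15, pandas 2.3.3, NumPy 2.4.6 and matplotlib 3.10.9.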

Additional observations from a re-analysis of the deposited data

How the results depend on the processing

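In the comparison of tumours with cerebellum, Ifit2, B2m and Stat2 were called under all alternatives run, including each fit without 1 library and limma, which compares separately scaled FPKM. The count of genes higher ranged over 3 to 6 without 1 library and the count lower stayed at 1. Against cerebellum, the counts higher and lower were 1 to 6 and 0 to 1 for A1G tumours and 2 to 5 and 1 for Ptch1 tumours. Without 1 library, none was called between A1G and Ptch1 tumours in either direction (0).

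The count higher in A1G tumours than in cerebellum, 5, became 3 with median-of-ratios scaling, 3 without the filter, 2 with the stricter filter and 3 with the replicate block, and the cause was not tested. The stricter filter left out Ifih1. At an unadjusted p, 1 gene was higher in A1G than in Ptch1 tumours. With the replicate block, Ifitm2 (1.23, adjusted p = 0.0543, edgeR) and Psmb8 (1.81, adjusted p = 0.0549) were not called against cerebellum. The labels do not say that a number pairs libraries, and the correlation of deviations ran from -0.0691 to 0.211 between same-numbered libraries and from -0.253 to 0.239 between others, so the block is not taken as a pairing. DESeq2 called Lgals3bp (1.05, adjusted p = 0.047).

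Between A1G and Ptch1 tumours, signs turned for Stat2 (0.0157 with median-of-ratios scaling, 0.00989 with DESeq2, 0.0128 with the stricter filter), Ifitm3 (0.216 and 0.277 with limma at pseudocounts of 1 and 0.1, 0.194 with the block) and Parp14 (-0.028 without the filter, -0.00178 with the compared groups alone), none of them called. Without 1 library, uncalled differences also crossed 0: between A1G and Ptch1 tumours B2m (-0.243 to 0.132), Cd74 (-0.144 to 0.848), H2-Aa (-0.934 to 0.13), H2-Ab1 (-1.46 to 0.469), Ifit3 (-0.671 to 0.641), Ifitm2 (-0.269 to 0.922), Ifitm3 (-0.633 to 0.446), Oasl2 (-1.01 to 0.491), Parp14 (-0.382 to 0.768), Psmb10 (-0.483 to 0.2), Psmb8 (-0.624 to 0.26), Stat2 (-0.435 to 0.386), Tap2 (-0.128 to 0.834), Tapbp (-0.299 to 0.135), and against cerebellum Irf7 (-0.544 to 0.461), Irf9 (-0.0539 to 0.342). Depth limits low genes: over all 9 libraries, 13 of the 40 had under 100 fragments.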
